A study of Mus musculus with 96 samples.

Results

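The 96 single neurons of the series were ranked by their level of Ptgds, and the 32 cells with the most (Ptgds-high cells) were compared with the 32 cells with the least (Ptgds-low cells) across all other genes. The 64 compared cells were therefore chosen by one measured value, Ptgds counts per 1000000 counts of the cell (CPM), and the 32 cells between them (middle cells) served only for description. All 96 cells were labelled as preoptic area neurons of the hypothalamus of C57BL/6N mice 2 to 3 months old, with no genetic change or agent named. Each was recorded in whole-cell patch clamp in a brain slice, drawn up with a glass pipette and made into a full-length cDNA library by Smart-seq2 and Nextera XT, a combination known as Patch-seq. The labels class 21 cells as warm-sensitive, 5 as cold-sensitive, 10 as silent sensitive, 24 as insensitive and 18 as silent insensitive, and give no class for 18. The question was whether genes of myelin and of other glia, and which genes of neurons, went with Ptgds.

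Ptgds encodes lipocalin-type prostaglandin D synthase, which converts prostaglandin H2 to prostaglandin D2 and also carries small lipophilic molecules such as retinoids. Its classical sites in the brain are the leptomeninges, the choroid plexus and oligodendrocytes, and prostaglandin D2 is known as a sleep-promoting signal. Ptgds messenger RNA in a cell labelled as a neuron can be its own or can come from cells and debris around the pipette, and counts of one library do not separate these.

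No label names the animal, slice or day of a cell. Each set of cells was therefore treated as 1 sample, and no test between sets was made. Values are differences between the sets in the mean over cells of log2(CPM + 1), with a difference of at least 1 in size taken as higher or lower, and shares of cells at 10 CPM or more. Shares carry exact Clopper-Pearson 95% intervals, which cover counting error only. A gene was eligible if it reached 10 CPM in no fewer than 25% of the Ptgds-high or of the Ptgds-low cells. This held for 4046 genes, so a gene detected only where it is high could enter through that set.

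The sets were of like depth. The total per cell had a median of 1385379 counts in Ptgds-high cells and 1290912 in Ptgds-low cells. The ribosomal RNA gene Rn45s took a median of 55.0% of the counts in Ptgds-high cells and 53.5% in Ptgds-low cells. A median of 3628.5 genes had a count in Ptgds-high cells, against 3729 in Ptgds-low cells. Markers of the labelled cell type were present in both sets. Of 20 pan-neuronal genes, the median Ptgds-high cell had 13.5 at 10 CPM or more and the median Ptgds-low cell 14.5. Every cell of both sets had at least 1. Snap25, a SNARE protein of synaptic vesicle release, was at 10 CPM or more in 31 of 32 Ptgds-high cells and 30 of 32 Ptgds-low cells.

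Ptgds itself is given as a description, since it chose the cells. It lay between 916 and 58710 CPM in Ptgds-high cells, with a median of 2922, and between 0.948 and 119 CPM in Ptgds-low cells, with a median of 19.1. Every one of the 96 cells had a count of it, and 87 were at 10 CPM or more. The last Ptgds-high cell, silent insensitive cell 17, had 916 CPM and the first middle cell, warm-sensitive cell 6, had 765 CPM. At the lower edge the last middle cell, silent sensitive cell 9, had 132 CPM and the first Ptgds-low cell, warm-sensitive cell 11, had 119 CPM. Neither edge falls in a gap, so the sets are ranges of a continuous ranking and not separate cell classes.

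**Figure D1:**
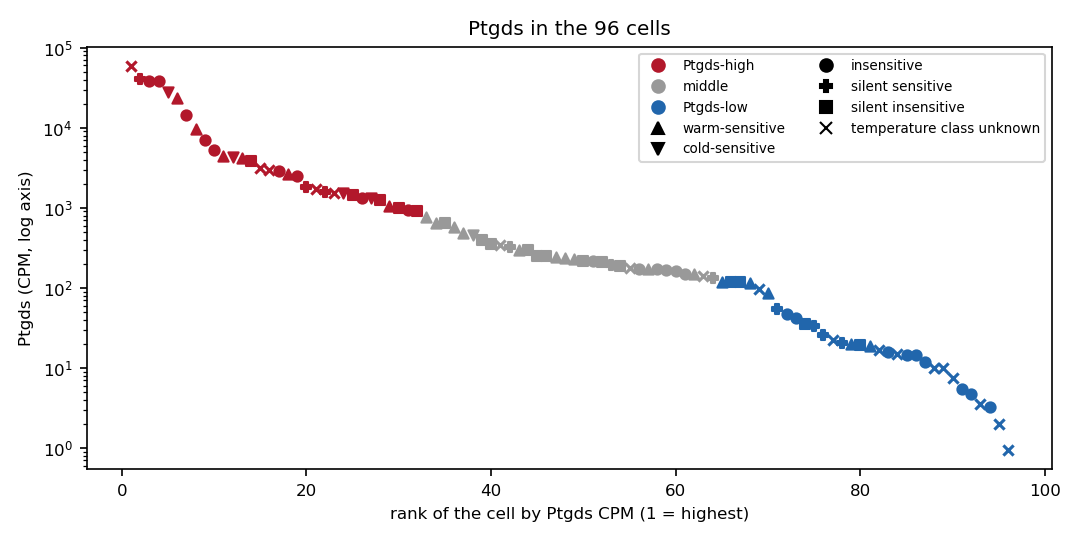
Ptgds in CPM (log axis) for each of the 96 cells against its rank, with colour for the set and marker shape for the labelled temperature class. Ptgds-high cells reach 58710 CPM and start at 916 CPM, and the values run on through the middle cells to 0.948 CPM in the lowest Ptgds-low cell without a break at either edge.

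Across the 4046 eligible genes, 231 were higher in Ptgds-high cells (5.71%) and 576 were lower (14.2%). The median gene differed by -0.22, and 2487 genes lay below 0 against 1559 above. This split depended on the scaling. With Rn45s left out of the totals, 141 genes were higher and 1644 lower, and the median gene differed by -0.72. Medians of eligible list members below are therefore also given relative to or beside the median gene, and counts of members past the threshold are to be read against 5.71% and 14.2%.

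Genes of the leptomeninges, the fibroblast and barrier cell layers that cover the brain, stood further apart in summed level than those of any of the other 9 glial and vascular lists. The list was chosen with earlier results of these data known, and its sum was added after seeing the data. It also holds Igf2 and Mgp, which headed the ranking of differences in these same cells. Its values are therefore a description and not independent support. At least 1 of the 14 listed genes was at 10 CPM or more in 28 of 32 Ptgds-high cells (87.5%, interval 71.0 to 96.5) and in 7 of 32 Ptgds-low cells (21.9%, interval 9.28 to 40.0). Middle cells were nearer to the Ptgds-low cells, with 10 of 32. Of the 14 genes, 13 were at 10 CPM or more in a larger number of Ptgds-high than of Ptgds-low cells and none in a smaller number.

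Their summed level had a lowest, median and highest value of 0, 238 and 2332 CPM in Ptgds-high cells, against 0, 0.943 and 323 CPM in Ptgds-low cells. The ranges overlapped, and 13 Ptgds-high cells lay above every Ptgds-low cell. The difference in the mean of log2(summed CPM + 1) was 5.04. Among the Ptgds-high cells themselves the median sum followed the ranking, at 846 CPM in ranks 1 to 8, 231 CPM in ranks 9 to 16, 157 CPM in ranks 17 to 24 and 35.8 CPM in ranks 25 to 32. Over all 96 cells, Spearman's rho between this sum and Ptgds was 0.61, a description over cells that share a library preparation and a total. Without the 8 cells with the most Ptgds, the difference in the sum was 4.20.

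Only Igf2 and Mgp of the list were eligible. Both were so through the Ptgds-high cells alone, which fixed that they would be higher (background 5.71%), so nothing is read from that count. Igf2, insulin-like growth factor 2, a product of leptomeninges and choroid plexus in the adult brain, was at 10 CPM or more in 20 Ptgds-high cells and 1 Ptgds-low cell. Its median was 19.2 CPM in Ptgds-high cells, with a highest value of 475 CPM, and 0 CPM in Ptgds-low cells, with a highest value of 323 CPM in a single cell. The difference was 3.56. Mgp, matrix Gla protein, an inhibitor of calcification made by fibroblasts and vascular cells, reached 10 CPM in 17 Ptgds-high cells and 2 Ptgds-low cells. Its median and highest values were 32.1 and 2142 CPM in Ptgds-high cells, against 0 and 57.1 CPM in Ptgds-low cells, a difference of 3.40.

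The other 12 leptomeningeal genes were sparse. At least 1 of them was at 10 CPM or more in 15 Ptgds-high cells (46.9%, interval 29.1 to 65.3), 7 middle cells and 4 Ptgds-low cells (12.5%, interval 3.51 to 29.0). Igfbp2, which binds insulin-like growth factors, reached 10 CPM in 5 Ptgds-high cells and 1 Ptgds-low cell. The collagen-binding proteoglycan Dcn, a defining fibroblast gene, did so in 3 Ptgds-high cells and no Ptgds-low cell, and the fibrillar collagen gene Col1a1 in 1 Ptgds-high cell and no Ptgds-low cell. Most Ptgds-high cells thus had Igf2 or Mgp (26 of 32) with the defining collagen and proteoglycan genes at or near 0.

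**Figure D2:**
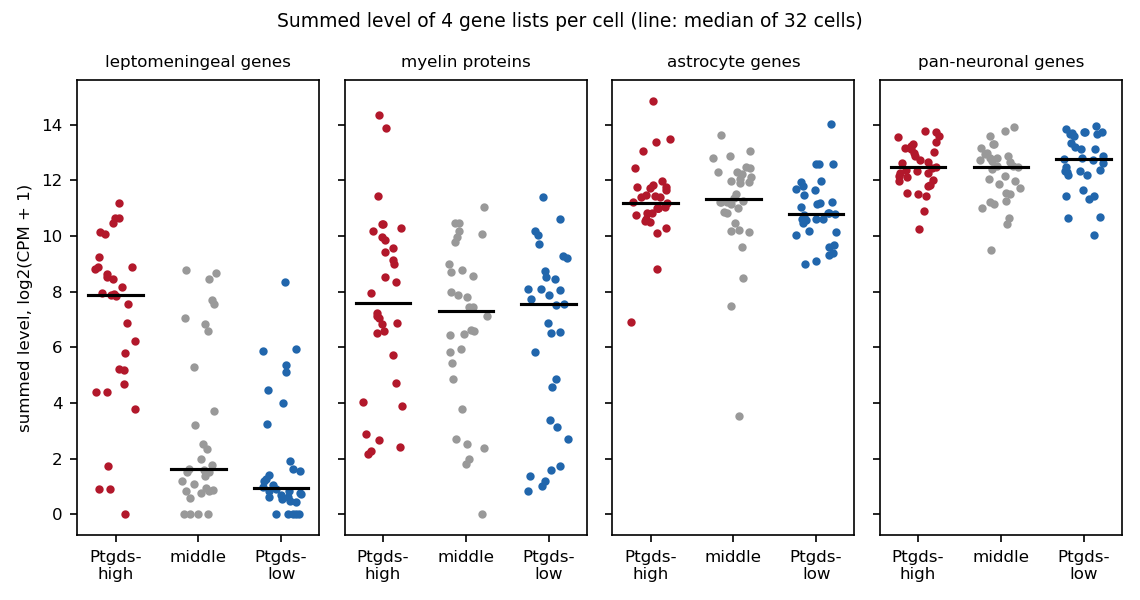
Summed level of the genes of a list in each cell, as log2(summed CPM + 1), for 4 lists and the 3 sets, with a line at the median of the 32 cells. The leptomeningeal sum has a median of 238 CPM in Ptgds-high cells and 0.943 CPM in Ptgds-low cells, whereas the myelin sum has a median of 199 CPM in Ptgds-high cells and 185 CPM in Ptgds-low cells.

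Genes outside that list were named where their difference was largest and did not rest on 1 cell, so their differences are a ranking and not support. After Igf2 and Mgp came Apod, with a difference of 3.22. Apod, a lipocalin like Ptgds that is made by both oligodendrocytes and leptomeningeal fibroblasts, was at 10 CPM or more in 14 Ptgds-high cells and 1 Ptgds-low cell. Ifitm3, an interferon-induced membrane protein, reached 10 CPM in 13 Ptgds-high cells, with a highest value of 435 CPM, and in none of the middle or Ptgds-low cells. The 0 of 32 Ptgds-low cells allow a share of up to 9.38% by the limit of 3 counts that a count of 0 allows. Lgals1, galectin-1, did so in 10 Ptgds-high cells and no Ptgds-low cell.

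Some of the other genes with a high difference were present in both sets, B2m and Dnajb1 among them. B2m, the light chain of class I antigen-presenting molecules, had a median of 199 CPM in Ptgds-high cells and 4.52 CPM in Ptgds-low cells, a difference of 2.55. Dnajb1, a heat-inducible co-chaperone, had a median of 497 CPM in Ptgds-high cells and 48.4 CPM in Ptgds-low cells, with a highest value of 6697 CPM in Ptgds-high cells and 7154 CPM in Ptgds-low cells, so that the ranges overlapped over nearly their whole width. The share of cells with any Dnajb1 count ran the other way, with a difference of -3.12 percentage points. Nupr1, a stress-induced nuclear protein, differed by 2.80, Chmp5, a subunit of the membrane-sorting machinery, by 2.22, the calcium-binding S100a1 by 2.22 and the bone morphogenetic protein antagonist Nbl1 by 2.21. Nbl1 was at 10 CPM or more in at most 2 Ptgds-low cells. It was eligible through the Ptgds-high cells alone, a filter that favours a higher value.

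Genes with ranks most like those of Ptgds over the 96 cells included Ifitm3 (Spearman's rho 0.51), Igf2 (0.49), Ogn (0.45), Nbl1 (0.41), Apod (0.39), Lgals1 (0.39) and Zfp36 (0.38). Ogn, a small proteoglycan of connective tissue, was at 10 CPM or more in 8 Ptgds-high cells, 1 middle cell and no Ptgds-low cell. Over all eligible genes the median rho was -0.04, and 21 genes reached 0.3.

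**Figure D3:**
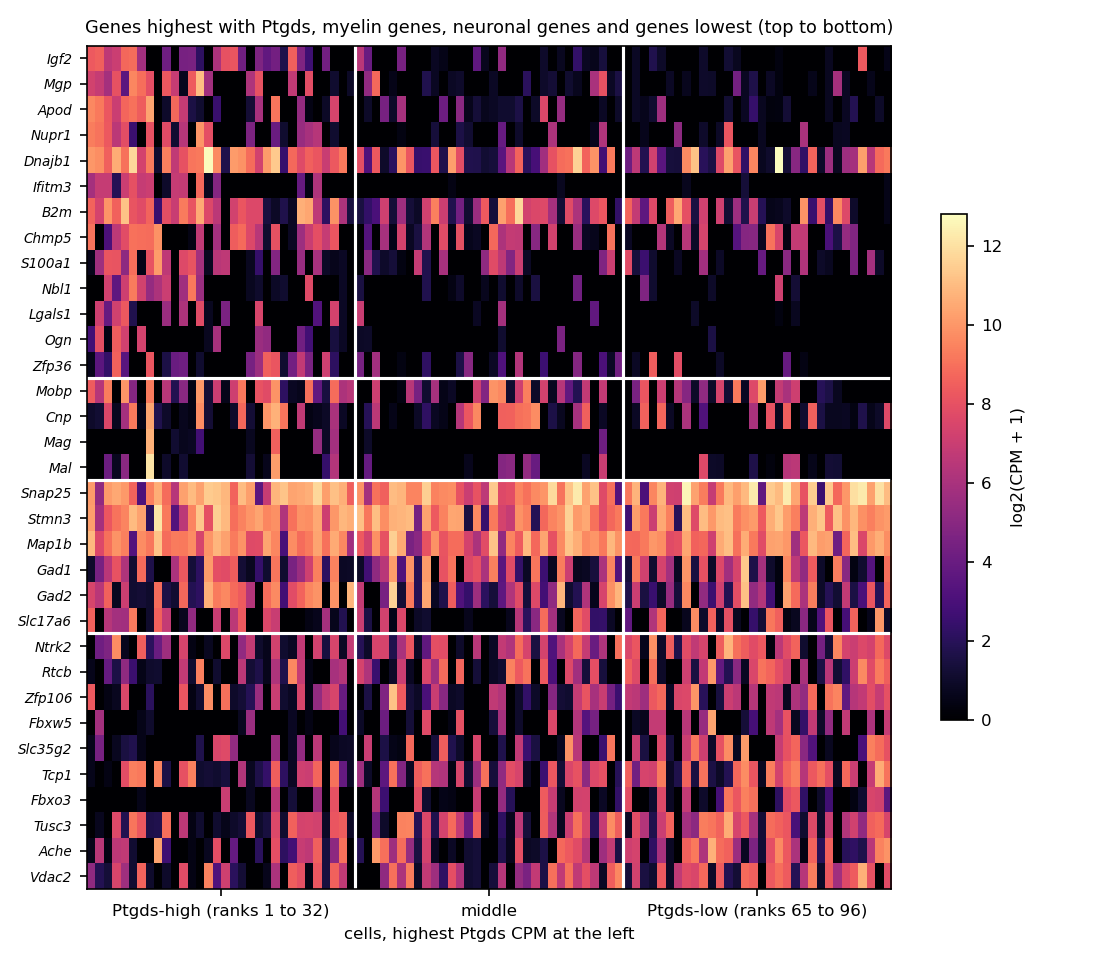
Level as log2(CPM + 1) of named genes (rows) in the 96 cells (columns), ordered by Ptgds with the highest at the left, in blocks for the genes highest with Ptgds, myelin genes, neuronal genes and the genes lowest. Ifitm3 is at 10 CPM or more in 13 Ptgds-high cells and in no cell outside them, while Mag and Mal are bright in few cells and Snap25 across nearly all.

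Myelin genes differed less between the sets than leptomeningeal genes did, in shares of cells and in summed level. At least 1 of the 13 listed genes of myelin proteins was at 10 CPM or more in 27 of 32 Ptgds-high cells (84.4%, interval 67.2 to 94.7) and in 23 of 32 Ptgds-low cells. Of the 13 genes, 10 were at 10 CPM or more in a larger number of Ptgds-high than of Ptgds-low cells, 1 in a smaller number and 2 in equal numbers. The summed level had a lowest, median and highest value of 3.50, 199 and 21070 CPM in Ptgds-high cells, against 0.777, 185 and 2710 CPM in Ptgds-low cells. The medians were close, and 3 Ptgds-high cells lay above every Ptgds-low cell. Spearman's rho between this sum and Ptgds was 0.16 over the 96 cells. The top of the range was set by warm-sensitive cell 17, with 21070 CPM, and temperature class unknown cell 2, with 14950 CPM. The difference in the mean of log2(summed CPM + 1) was 1.21, and 0.77 without those 2 cells.

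Of the 13 myelin genes, 4 were eligible, with a median difference of 0.88, which is 1.10 above the median gene, and 0.51 without those 2 cells. Other scalings gave larger medians, 1.54 with the deposited normalized values and 2.00 with DESeq2 size factors. Of the 4 eligible genes, 1 was higher (background 5.71%). This was Mobp, a myelin-associated basic protein of oligodendrocytes, at 1.97. It had a median of 77.0 CPM in Ptgds-high cells and 1.16 CPM in Ptgds-low cells, but no Ptgds-high cell lay above every Ptgds-low cell. Cnp, an enzyme of myelin sheaths, differed by 0.99 and Tspan2, a tetraspanin of oligodendrocytes, by 0.78. Mag, an adhesion protein of the inner sheath that was too sparse to be eligible, reached 10 CPM in 4 Ptgds-high cells and no Ptgds-low cell.

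Other oligodendrocyte genes gave values that depended on which members entered. Their summed level had a median of 703 CPM in Ptgds-high cells and 431 CPM in Ptgds-low cells, and the difference in the mean of log2(summed CPM + 1) was 0.89. Of 22 listed, 18 were at 10 CPM or more in a larger number of Ptgds-high than of Ptgds-low cells and 4 in a smaller number. The 9 eligible members had a median difference of 1.28, against 0.53 over all listed members, and several were eligible through the Ptgds-high cells alone, Apod, Cryab and Olig1 among them. The median gene was at -0.22. Of the 9, 6 were higher and none lower (background 5.71% and 14.2%), a count that this filter favours. These were Apod with 3.22, the small heat shock protein Cryab with 2.14, Plekhb1 with 1.48, the lysophospholipid-producing enzyme Enpp2 with 1.39, transferrin (Trf) with 1.28 and the lineage transcription factor Olig1 with 1.16. Several of them are known from other cells too, Apod and Cryab among them. Cryab was at 10 CPM or more in 14 Ptgds-high cells and 5 Ptgds-low cells, and Olig1 in 8 Ptgds-high cells and 4 Ptgds-low cells. Qdpr, a pteridine reductase that mature oligodendrocytes express, differed by -0.23.

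Leptomeningeal and myelin genes did not rank together among the cells. In Ptgds-high cells, 23 had a gene of both lists at 10 CPM or more, 5 had leptomeningeal genes alone, 4 had myelin genes alone and none lacked both. In Ptgds-low cells, 4 had a gene of both lists, 3 had leptomeningeal genes alone, 19 had myelin genes alone and 6 lacked both. At a stricter level, 3 or more leptomeningeal genes were at 10 CPM in 10 Ptgds-high cells and no Ptgds-low cell, and 4 or more myelin genes in 7 Ptgds-high cells and 2 Ptgds-low cells, and 2 Ptgds-high cells met both. Spearman's rho between the sums was 0.04 over the 32 Ptgds-high cells and 0.09 over the 96 cells.

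Eligible astrocyte genes lay above the median gene by their median. The summed level of the list had a median of 2360.5 CPM in Ptgds-high, 2561 CPM in middle and 1782 CPM in Ptgds-low cells. The difference in the mean of log2(summed CPM + 1) between Ptgds-high and Ptgds-low cells was 0.37. By cells at 10 CPM or more, 10 members were in a larger number of Ptgds-high cells, 5 in a smaller number and 6 in equal numbers. Of 21 listed, 10 were eligible with a median of 0.59, which is 0.81 above the median gene, and with 48 cells in each set the median was 0.011. Of the 10, 3 were higher and none lower (background 5.71% and 14.2%). Apoe, the lipid carrier of astrocytes and microglia, had a median of 541 CPM in Ptgds-high cells and 156 CPM in Ptgds-low cells, a difference of 1.58. Of the metallothioneins, which bind zinc and copper and are also induced by stress, Mt2 differed by 1.90 and Mt1 by just over the threshold, with a median of 303 CPM in Ptgds-high cells and 153 CPM in Ptgds-low cells. None of the other 7 eligible members was past the threshold, and every cell of both sets held at least 1 member at 10 CPM or more.

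Microglial genes gave no common direction. At least 1 of 16 was at 10 CPM or more in 23 of 32 cells of each set. Of the 16, 5 were so in a larger number of Ptgds-high cells and 9 in a larger number of Ptgds-low cells. Their summed level had a median of 616 CPM in Ptgds-high cells and 1113 CPM in Ptgds-low cells. The 11 eligible members had a median of 0.06, which is 0.28 above the median gene, with 2 higher and 1 lower (background 5.71% and 14.2%), and a median of -0.83 when the cells of unknown class were left out of the ranking. Subunits of the same complement protein differed in sign: C1qb, a subunit of C1q, differed by 1.20, whereas C1qa differed by -1.18, with 11 Ptgds-high cells and 17 Ptgds-low cells at 10 CPM or more. Trem2, a lipid receptor of microglia, was just over the threshold, with 11 Ptgds-high cells and 7 Ptgds-low cells at 10 CPM or more. It was eligible through the Ptgds-high cells alone, a filter that favours a higher value. The precursor list had 2 eligible genes, Bcas1 with -1.18 and Lhfpl3 with 0.68.

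No endothelial, mural, ependymal or choroid plexus gene of the lists was eligible. The endothelial genes Cldn5, Ly6c1 and Slco1a4 and the pericyte genes Rgs5, Kcnj8 and Abcc9 had no count in any of the 64 cells. At least 1 of the 8 mural genes was at 10 CPM or more in 6 Ptgds-high cells and 2 Ptgds-low cells. Of the 8, 2 were so in a larger number of Ptgds-high cells, 2 in a smaller number and 4 in equal numbers. Vtn, vitronectin, listed for pericytes, was at 10 CPM or more in 5 Ptgds-high cells and no Ptgds-low cell. At least 1 choroid plexus gene was at 10 CPM or more in 4 Ptgds-high cells and 2 Ptgds-low cells. What part RNA from neighbouring tissue had in the leptomeningeal and glial values was not tested.

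**Figure D4:**
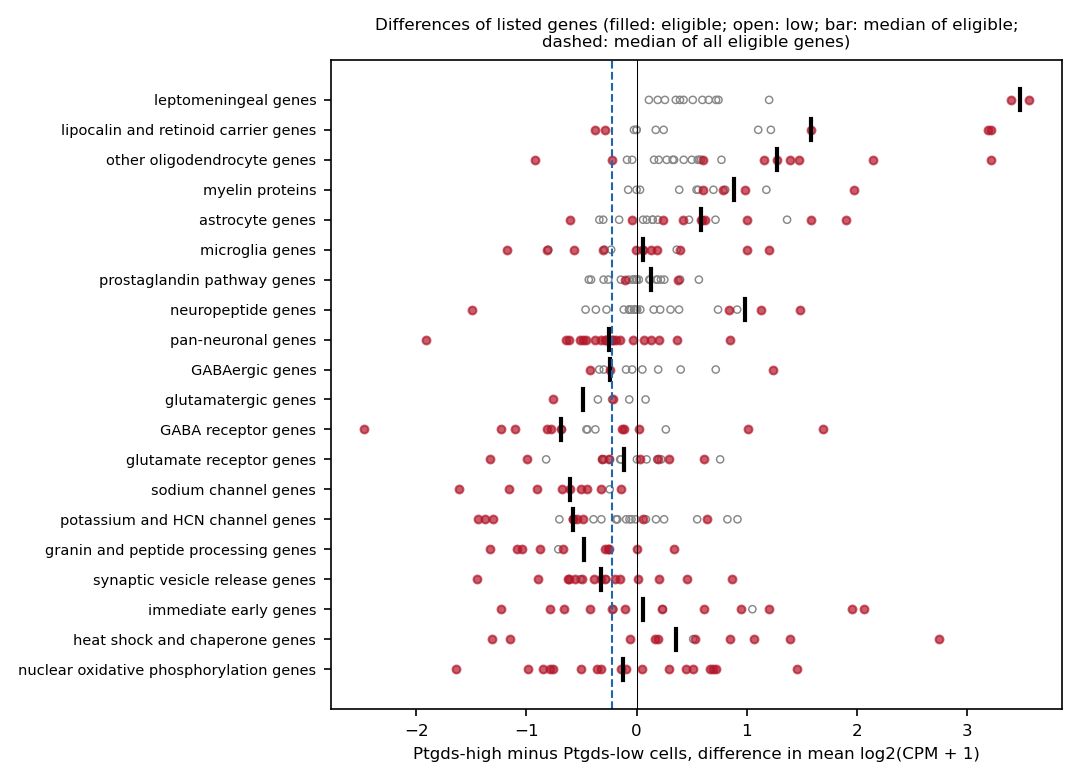
Difference between Ptgds-high and Ptgds-low cells in mean log2(CPM + 1) for the genes of 20 lists, with filled points for eligible genes, open points for genes too low to be eligible, a bar at the median of the eligible genes and a dashed line at the median gene (-0.22). Igf2 and Mgp lie at the right edge, and the pan-neuronal median of -0.25 lies on the dashed line.

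Few genes of the prostaglandin pathway could be compared. Of 25 prostaglandin genes, 2 were eligible and none was higher or lower. By cells at 10 CPM or more, 8 members were in a larger number of Ptgds-high cells, 5 in a smaller number and 12 in equal numbers. The summed level had a median of 234 CPM in Ptgds-high cells and 97.9 CPM in Ptgds-low cells. The difference in the mean of log2(summed CPM + 1) was 0.69. Ptges3, a co-chaperone with prostaglandin E synthase activity, differed by -0.11 and Cbr1, a carbonyl reductase of prostaglandins, by 0.38. The cyclooxygenases that supply the substrate were rare, with Ptgs1 at 10 CPM or more in 1 Ptgds-high cell and 4 Ptgds-low cells and Ptgs2 in 1 Ptgds-high cell and 2 Ptgds-low cells. Hpgds, the other prostaglandin D synthase, was so in 4 cells of each set, and the prostaglandin D2 receptor Ptgdr in no cell of either set. Of 12 lipocalin and retinoid carrier genes, 5 were eligible with a median of 1.58, which is 1.80 above the median gene, and 3 were higher (background 5.71%). Among these, Apod and Apoe are counted above in the glial lists, and Apod was eligible through the Ptgds-high cells alone. Among the sparse members, the retinoic acid-binding Crabp2 reached 10 CPM in 5 Ptgds-high cells and no Ptgds-low cell, and the retinol carrier Rbp4 in 6 Ptgds-high cells and 2 Ptgds-low cells.

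Pan-neuronal genes lay close to the median gene in level, though more of them were detected in a larger number of Ptgds-low cells. Of the 20, 6 were at 10 CPM or more in a larger number of Ptgds-high cells, 13 in a smaller number and 1 in equal numbers. All 20 were eligible, with a median of -0.25 against -0.22 for the median gene, which with DESeq2 size factors became 0.31 against -0.31. None was higher and 1 was lower (background 5.71% and 14.2%). Their summed level had a median of 5673 CPM in Ptgds-high cells and 6904 CPM in Ptgds-low cells. The gene that was lower was Elavl4, a neuronal RNA-binding protein, at -1.91, with 8 Ptgds-high cells and 18 Ptgds-low cells at 10 CPM or more. Over the 11 neuronal lists, 88 genes were eligible, of which 5 were higher (5.68%, background 5.71%) and 15 lower (17.05%, background 14.2%). Both shares are near the background, so the neuronal lists as a whole were not set apart by Ptgds.

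The transmitter type of the cells was mixed in both sets. With Gad1, the main GABA-synthesizing enzyme, and Slc17a6, the vesicular glutamate transporter of hypothalamic neurons, as marks at 10 CPM, 11 Ptgds-high cells had Gad1 alone, 8 had Slc17a6 alone, 6 had both and 7 had neither. Of the Ptgds-low cells, 15 had Gad1 alone, 9 had Slc17a6 alone, 3 had both and 5 had neither. Gad1 differed by -0.24 and Slc17a6 by -0.22, both close to the median gene. Gad2, the second GABA-synthesizing enzyme, differed by 1.24, with medians of 202 CPM in Ptgds-high cells and 22.8 CPM in Ptgds-low cells. Its share of cells with any count ran the other way, lower by 6.25 percentage points in Ptgds-high cells.

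Neuronal genes with the highest differences included a GABA receptor subunit and neuropeptides. Gabrb2, a beta subunit of GABA-A receptors, differed by 1.69, with 20 Ptgds-high cells and 13 Ptgds-low cells at 10 CPM or more. Avp, vasopressin, differed by 1.49, with 17 Ptgds-high cells and 9 Ptgds-low cells, but its mean was 202 CPM in Ptgds-high cells and 208 CPM in Ptgds-low cells, with a highest cell of 3550 CPM in the Ptgds-high set and 5904 CPM in the Ptgds-low set. Adcyap1, the precursor of the peptide PACAP and a marker of warm-responsive preoptic neurons, differed by 1.13, with 13 Ptgds-high cells and 7 Ptgds-low cells. Adcyap1 was eligible through the Ptgds-high cells alone, a filter that favours a higher value. Its mean level ran the other way too, at 58.6 CPM in Ptgds-high cells and 96.5 CPM in Ptgds-low cells. Under the threshold lay Cplx2, a regulator of vesicle fusion, with 0.87, Gap43, a growth cone protein, with 0.85, and the peptide somatostatin (Sst) with 0.84.

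Genes of excitability and peptide release were among the neuronal genes at the lower end. Nalcn, the sodium leak channel that sets resting potential, differed by -1.61, with 3 Ptgds-high cells and 10 Ptgds-low cells at 10 CPM or more. The leak potassium channels Kcnk1 and Kcnk2 differed by -1.44 and -1.38. Nalcn and Kcnk2 were eligible through the Ptgds-low cells alone, a filter that favours lower values, so nothing is read from their being counted as lower. Of 11 eligible GABA receptor genes, 2 were higher and 3 lower (background 5.71% and 14.2%), with a median of -0.68, or -0.46 relative to the median gene. Their summed level was not lower, with a difference in the mean of log2(summed CPM + 1) of 0.05. The same difference was -0.51 for sodium channel genes and -0.50 for potassium and HCN channel genes. Sodium channel genes had a median of -0.61, or -0.39 relative to the median gene, with 2 of 9 lower (background 14.2%). Potassium and HCN channel genes had a median of -0.57, or -0.35 relative to the median gene, with 3 of 9 lower (background 14.2%). The channel counts include Nalcn and Kcnk2, whose lower values the filter favours, so nothing is read from these counts.

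Tac1, the precursor of substance P, differed by -1.49 and Napa, an adaptor for SNARE disassembly, by -1.45. Chga, chromogranin A of dense-core vesicles, differed by -1.33, with medians of 15.9 CPM in Ptgds-high cells and 123 CPM in Ptgds-low cells. Granin and peptide processing genes had a median of -0.48, or -0.26 relative to the median gene, with 3 of 10 lower (background 14.2%). By their medians, glutamate receptor genes, with -0.11, and synaptic vesicle release genes, with -0.33, lay nearer to the median gene with 1 lower each. Summed levels gave another order. The difference in the mean of log2(summed CPM + 1) was -0.60 for glutamate receptor, -0.24 for granin and peptide processing and -0.15 for synaptic vesicle release genes.

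Genes with the lowest differences of all included broadly expressed ones. Ntrk2, the receptor of brain-derived neurotrophic factor, had a lowest, median and highest value of 0, 2.50 and 839 CPM in Ptgds-high cells, against 0, 193 and 1849 CPM in Ptgds-low cells, a difference of -2.75. The ranges overlapped, and 15 Ptgds-high cells and 24 Ptgds-low cells were at 10 CPM or more. The RNA ligase Rtcb differed by -2.54, the zinc finger protein Zfp106 by -2.52, the F-box protein Fbxw5 by -2.51, the membrane protein Slc35g2 by -2.50 and the chaperonin subunit Tcp1 by -2.48. Fbxw5 showed the widest split in cells, at 10 CPM or more in 2 Ptgds-high cells and 13 Ptgds-low cells. It was eligible through the Ptgds-low cells alone, a filter that favours a lower value. Fbxo3, Tusc3, Ache and Vdac2 followed, between -2.45 and -2.14.

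Genes of cell stress and activity gave mixed values beside these lists. Of 12 eligible immediate early genes, 3 were higher and 1 lower (background 5.71% and 14.2%). Fosb (2.07), Atf3 (1.95) and Jun (1.20) were higher and Egr3 was lower (-1.23). Of 10 eligible chaperone genes, 3 were higher and 2 lower (background 5.71% and 14.2%). Dnajb1 (2.75), Hspb1 (1.39) and Hspa1a (1.07) were higher, and Hspa5 of the endoplasmic reticulum (-1.31) and the mitochondrial Hspd1 (-1.15) were lower. The part of slice preparation and recording in these values was not tested. The median of 18 nuclear oxidative phosphorylation genes was -0.12, or 0.10 above the median gene.

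By labelled temperature class, 4 of 5 cold-sensitive cells were Ptgds-high (80.0%, interval 28.4 to 99.5) and none was Ptgds-low. Of warm-sensitive cells, 6 of 21 were Ptgds-high (28.6%, interval 11.3 to 52.2) and 5 Ptgds-low. Insensitive cells divided evenly, with 9 of 24 in each set. Silent insensitive cells gave 5 Ptgds-high and 4 Ptgds-low of 18, silent sensitive cells 3 Ptgds-high and 4 Ptgds-low of 10, and cells with no class 5 Ptgds-high and 10 Ptgds-low of 18. These shares come from the Ptgds values that chose the sets, and no difference between classes was tested.

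**Figure D5:**
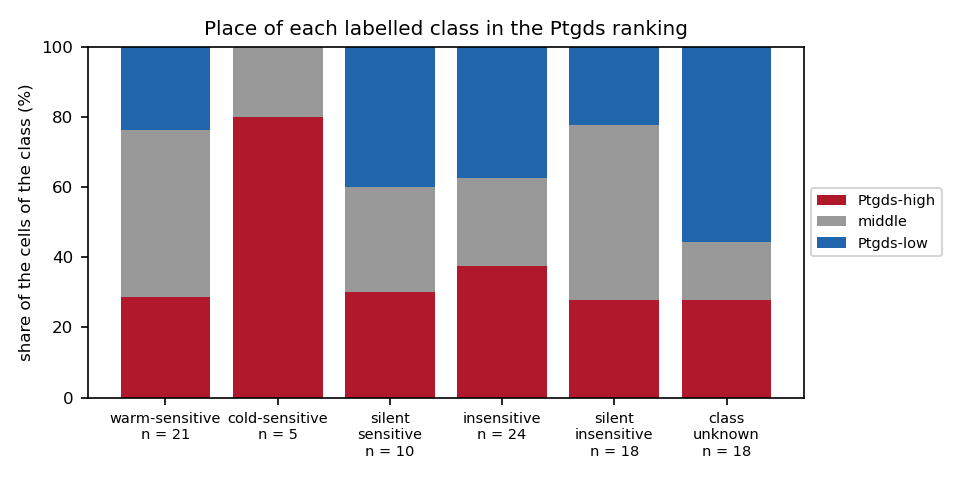
Share of the cells of each labelled temperature class that fell in the Ptgds-high, middle and Ptgds-low sets, in percent, with the number of cells under each bar. Cold-sensitive cells have the largest Ptgds-high share, 4 of 5, with an interval of 28.4 to 99.5%.

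The cells' titles carry 8 letters with 12 cells each, whose meaning is not given. The number of Ptgds-high cells per letter ran from 1 in F to 6 in A, D and G, and that of Ptgds-low cells from 2 in A, D and G to 7 in F. Within each of the 8 letters the summed leptomeningeal level was higher in Ptgds-high than in Ptgds-low cells, by 0.36 in G to 9.01 in F on the log2 scale. The myelin sum differed within letters by -0.10 in D to 3.21 in F. Both F values rest on 1 Ptgds-high cell.

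Depth was matched as a check by thinning each cell to 100000 counts outside Rn45s, which 31 Ptgds-high and 32 Ptgds-low cells could give. A leptomeningeal gene then had a count in 29 of 31 Ptgds-high cells and 10 of 32 Ptgds-low cells, and a myelin gene in 28 of 31 Ptgds-high cells and 27 of 32 Ptgds-low cells. Igf2 had a count in 22 of the thinned Ptgds-high cells and 1 of the Ptgds-low cells.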

How the data were processed

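RNA of single pipette-harvested preoptic neurons was sequenced per the labels. The authors deposited a table of raw counts, in whole reads, and a normalized signal table in which each cell's CPM is divided by a constant between 0.177 and 2.49. FastQC, STAR, edgeR and the build mm10 are named in the submitters' processing notes. Versions, gene annotation, read counting and strand use are not given in the sources here, so overlapping genes or close copies may share reads.

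CPM was computed over all 24054 genes, Rn45s included, in Python 3.11.15 (pandas 2.3.3, numpy 2.4.6, scipy 1.17.1). Cells held 465167 to 3660726 counts, and no 2 cells held identical values. Of the genes, 7772 had no count. Cells were ranked by Ptgds CPM and the 32 highest were set against the 32 lowest. Eligible genes had 10 CPM or more in at least 25% of either set, and a difference of 1 in mean log2(CPM + 1) was the threshold. This scale understates differences of low genes. The measures were tested on simulated data.

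The named genes were, leaving out predicted, ribosomal protein, pseudogene and mitochondrially encoded genes, the 12 highest and 12 lowest differences that agreed in sign with the share of cells and kept at least 2/3 of their size without any 1 cell, the 8 highest and 8 lowest of the neuronal lists, the genes of the marker, prostaglandin and lipocalin lists and of transmitter synthesis, and the 8 genes most like Ptgds in rank. The cells and gene lists were chosen with earlier results of these data known, so the lists give no independent support. The results of some listed and top-ranked genes are not reported here; 2 of them were left out of the lists and the others entered list counts and medians.

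Alternatives were other totals (without Rn45s, TMM from edgeR 4.0.16, DESeq2 1.42.0 size factors, the deposited normalized values), pseudocounts, filters, set sizes, thinning, summed CPM, leaving out cells and differences within title letters.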

Additional observations from a re-analysis of the deposited data

Results flagged for a closer look

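Within the labelled temperature classes of 4 to 10 cells, Ptgds in single cells stood far from the rest of its class in 2 cases. Cold-sensitive cell 1 had 28137 CPM, against 4314 CPM in the next of the 5 cold-sensitive cells, a gap of 0.861 of the range where Dixon's critical value is 0.71. Silent sensitive cell 7 had 40810 CPM, against 1817 CPM in the next of the 10 silent sensitive cells, a gap of 0.956 of the range and also past the critical value for 10 cells. Dixon's critical values are made for normally distributed values, in which chance gives such a gap in about 1 in 20 groups. Both values are on a linear scale, over which Ptgds is skewed in all 96 cells. That rate therefore does not apply here, and the 2 gaps are given as a description only.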

How the results depend on the processing

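Counts of genes past the threshold depended most on the processing. Against 231 genes, the number higher was 141 without Rn45s in the totals, 135 with TMM, 152 with the deposited values, 506 and 44 with pseudocounts of 0.1 and 10, 87 with a 50% filter, 46 with 48 cells in each set, 479 after thinning and 361 with summed CPM. Against 576, the number lower was 1644, 1046 and 1061 under the same scalings, 996 and 93 with those pseudocounts, 219 with the 50% filter, 1232 with 24 cells in each set, 964 for cells with at most 75% Rn45s and 977 within title letters. The median gene was -0.72, -0.56, -0.56 and, with 24 cells, -0.54.

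The myelin median was 1.47 with TMM, 1.54 with the deposited values, 2.00 with DESeq2 size factors, 1.97 with the 50% filter, 1.71 with 24 cells and 1.63 with summed CPM, and the myelin sum 2.31 with DESeq2 size factors and 2.10 with summed CPM. The oligodendrocyte median was 0.53 without a filter, 0.63 with 50%, 0.74 with 48 cells, 0.54 with 26 against 26 classed cells, 2.52 with summed CPM and 0.77 within letters. The astrocyte median was 1.36 with DESeq2 size factors and 0.011 with 48 cells, the microglia median -0.83 with classed cells, and the pan-neuronal median 0.31 with DESeq2 size factors and -0.79 with 24 cells. The leptomeningeal sum, added after seeing the data as were its alternatives, was 5.95 and 3.39 with pseudocounts of 0.1 and 10, 5.76 and 3.67 with 24 and 48 cells, 6.18 after thinning and 4.20 without the 8 cells with the most Ptgds. The Ptgds-high share of silent insensitive cells was 5.56% among the 24 highest.

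Relative to the median gene, the myelin, oligodendrocyte and astrocyte medians were above 0 in all 17 settings, the microglia median in 14 and the pan-neuronal median in 11. Signs turned for Avp (-0.037) and Adcyap1 (-0.71) with summed CPM, and for shares at 1 count or more of Dnajb1 (-3.12 percentage points) and Gad2 (-6.25). The cause was not tested. Of the other values of single genes, 655 moved by no more than their standard error or interval over cells and 118 moved by more.

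Leaving out 1 cell gave 191 to 291 genes higher, 485 to 704 lower, a median gene of -0.34 to -0.13, and medians of 0.75 to 1.10 (myelin), 1.15 to 1.42 (oligodendrocyte), 0.44 to 0.75 (astrocyte), -0.16 to 0.32 (microglia) and -0.39 to -0.15 (pan-neuronal). The leptomeningeal sum stayed at 4.90 to 5.26 and the myelin sum at 0.99 to 1.38. The other scalings kept 25 to 29 of the 32 Ptgds-high cells. No paired analysis was possible because the labels give the cells no replicate numbers; the values within title letters use the letter, whose meaning is not given, as a block. Depth limits sparse genes: a count under 10 CPM was read as not detected, not as absent.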
